A study of Mus musculus with 20 samples.

Results

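The 45 interferon response genes followed here are genes that mouse cells switch on when interferon is sensed, named as a list of symbols. The list was drawn up with earlier results of these data known, so counts of its genes called are a description of the list. They are 45 of the 21912 genes with a value in either of the authors' tables, and each of them was matched to a single row in both tables. By role the list holds 5 sensors of foreign nucleic acid (Ddx58, Dhx58, Ifih1, Zbp1, Eif2ak2), 5 transcription regulators (Irf1, Irf7, Irf9, Stat2, Sp100), 3 genes of the ISG15 system (Isg15, Usp18, Herc6) and 6 interferon-inducible GTPases (Gbp2, Gbp3, Gbp7, Ifi47, Igtp, Irgm1). A group of 17 genes counted here as antiviral effectors takes in Ifit1, Ifit2, Ifit3, Ifitm3, Oas1a, Oas3, Oasl1, Oasl2, Rsad2, Mx1, Bst2, Cmpk2, Trim30a, Rnf213, Samhd1, Slfn2 and Slfn5. The remaining genes are the chemokine Cxcl10, the pair Parp9 and Parp14, and 6 others (Ifi27l2a, Ifi204, Ifi35, Ifi44, Rtp4, Xaf1).

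CD45+ cells, that is leukocytes, were sorted from eyes of C57BL/6 mice aged 8 weeks into plates, and transcripts were counted by molecular identifiers in libraries of 192 wells each (mCEL-Seq2). The 20 libraries form 5 groups of 4: retina 3 days after a laser lesion, retina 7 days after a laser lesion, cornea, ciliary body, and retina without a lesion (control). The study's text gives about 6 mice in 3 experiments, and no label ties a library to a mouse. Libraries of one group whose names begin with the same prefix (P1 to P5) were therefore summed per cell class, 2 at a time, and each sum counts as 1 replicate, so every group has 2.

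The authors' annotation names microglia, dendritic cells and a joint class (monocytes, lymphocytes and granulocytes together) among 511 wells of the retina table, and microglia, macrophages and that joint class among 429 wells of the eye table. In the retina the sums of control, day 3 and day 7 microglia held 32 and 88, 30 and 51, and 63 and 50 wells, in the order P1 and P2. Dendritic cell sums held 23 and 59 wells at day 3 and 16 and 10 at day 7, and sums of the joint class held 18 and 28 wells at day 3 and 26 and 15 at day 7. Control retina gave 2 annotated wells of the joint class, too few for a sum. The control microglia of both tables are largely the same wells, since 111 wells stand in both.

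Interferons are secreted proteins that bind receptors on the same or a neighbouring cell. Type I and type III interferons lead to a complex of Stat2, Irf9 and a partner that binds the interferon-stimulated response element (ISRE) in promoters, and type II interferon leads to a factor that binds the gamma-activated site (GAS). Microglia, the resident macrophages of the retina, can both sense and mount this programme.

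Promoter sequence from RefSeq (GRCm38.p6, 250 bases before to 50 bases after the start of transcription) was found for 36 of the 45 genes. The ISRE core searched was GAAA, any 2 bases, GAAA, on both strands. It lay in the windows of 20 of the 36 genes (55.6%), against 4.0% of the 27025 genes with a window (3.44% of the 32851 windows). The GAS searched was TTC, any 3 bases, GAA, which can share bases with the ISRE core. It lay in the windows of 10 of the 36 genes (27.8%), against 9.55% of all genes. The promoters below belong to 4 of the genes that were higher in day 3 microglia, and they are shown because they hold the ISRE core, written in capitals, on the strand of the gene. All 4 genes lie on the minus strand, and each sequence runs 5′ to 3′ towards the gene. They cover chr4:156200769-156201068 for Isg15, chr17:78882523-78882822 for Eif2ak2, chr5:92348840-92349139 for Cxcl10 and chr7:141010695-141010994 for Ifitm3.
Isg15: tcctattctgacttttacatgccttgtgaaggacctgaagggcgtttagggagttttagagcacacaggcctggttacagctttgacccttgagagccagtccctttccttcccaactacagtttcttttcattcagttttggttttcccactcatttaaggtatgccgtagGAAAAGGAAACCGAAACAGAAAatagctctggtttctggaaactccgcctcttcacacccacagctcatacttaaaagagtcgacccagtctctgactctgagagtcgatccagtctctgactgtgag
Eif2ak2: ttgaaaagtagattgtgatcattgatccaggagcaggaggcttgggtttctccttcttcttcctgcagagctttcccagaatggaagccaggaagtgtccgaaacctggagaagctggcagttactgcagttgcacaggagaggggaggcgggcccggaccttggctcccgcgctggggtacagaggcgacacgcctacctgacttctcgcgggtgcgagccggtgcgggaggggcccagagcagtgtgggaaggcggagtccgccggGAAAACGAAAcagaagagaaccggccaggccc
Cxcl10: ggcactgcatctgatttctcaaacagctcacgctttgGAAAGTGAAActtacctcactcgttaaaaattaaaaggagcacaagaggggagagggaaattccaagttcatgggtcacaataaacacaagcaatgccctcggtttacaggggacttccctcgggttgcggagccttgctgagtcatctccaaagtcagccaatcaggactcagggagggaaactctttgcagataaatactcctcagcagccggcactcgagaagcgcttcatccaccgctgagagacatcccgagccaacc
Ifitm3: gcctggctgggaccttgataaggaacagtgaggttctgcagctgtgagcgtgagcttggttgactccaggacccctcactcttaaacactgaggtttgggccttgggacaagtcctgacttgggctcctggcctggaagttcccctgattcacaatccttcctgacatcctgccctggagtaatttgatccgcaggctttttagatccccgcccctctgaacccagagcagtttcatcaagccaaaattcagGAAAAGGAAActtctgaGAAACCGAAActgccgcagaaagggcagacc
The Isg15 window holds 3 overlapping cores, the Ifitm3 window 2, and the other two windows 1 each. A match is a description of these letters and not evidence of binding.

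The share of transcripts that fell on the 45 genes was higher in microglia after the laser lesion than in control microglia. It stood at 0.214% and 0.234% of the summed transcripts in control microglia, at 0.357% and 0.543% at day 3, and at 0.450% and 0.420% at day 7. Both lesion groups lay above the control sums and overlapped each other. The means were 0.224% ± 0.014 in control microglia, 0.450% ± 0.131 at day 3 and 0.435% ± 0.021 at day 7 (SD, n = 2 sums each). Single libraries ran from 0.175% to 0.254% in control microglia, from 0.241% to 0.590% at day 3 and from 0.301% to 0.508% at day 7. The lowest day 3 library thus lay among the control libraries, whereas the day 7 libraries did not overlap control. These shares are a description, with no test, because the list was drawn up with results of these data known.

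The joint class of monocytes, lymphocytes and granulocytes carried the highest summed share among the retinal classes on both days after the lesion. Its share was 0.832% and 1.111% at day 3 and 0.845% and 0.762% at day 7. Dendritic cells stood at 0.409% and 0.538% at day 3 and at 0.678% and 0.677% at day 7. Dendritic cells overlapped microglia at day 3 and lay above them at day 7. The median share per well was 0.613% in the joint class and 0.424% in dendritic cells at day 3, but 0.438% and 0.516% at day 7. Without the highest well of each sum these 2 classes overlapped at day 7, with 0.721% and 0.584% against 0.562% and 0.629%. At day 3 the joint class stayed above, with 0.684% and 1.003% against 0.374% and 0.515%. In eyes without a lesion the share was 0.491% and 0.639% in the joint class of the ciliary body, 0.382% and 0.423% in ciliary body macrophages, 0.410% and 0.322% in cornea macrophages, and 0.177% and 0.234% in retinal microglia of the same table. Every sum from the cornea and the ciliary body lay above both microglia sums.

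**Figure D1:**
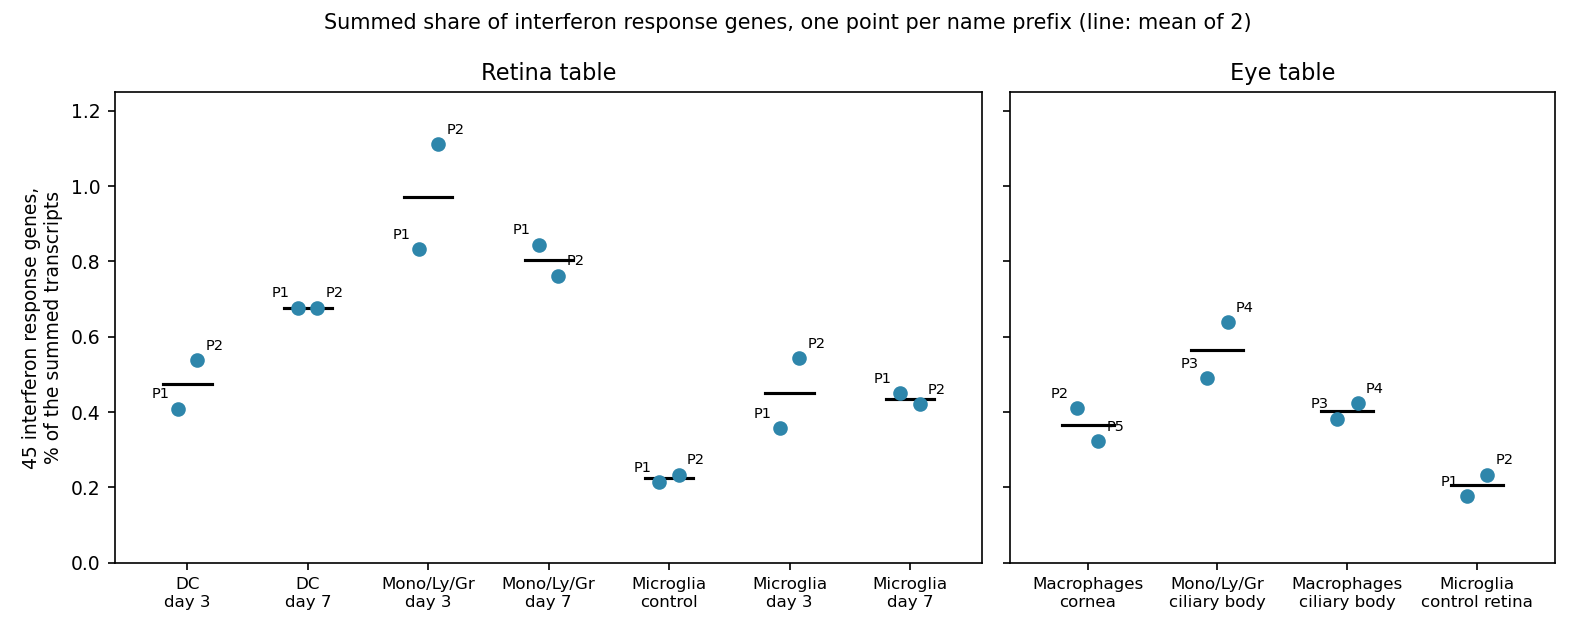
Share of the summed transcripts that fell on the 45 interferon response genes (y axis, %), by cell class and group (x axis) in the retina table (left) and the eye table (right). Each point is the sum of the libraries with 1 name prefix, the line is the mean of 2 points, DC stands for dendritic cells and Mono/Ly/Gr for the joint class of monocytes, lymphocytes and granulocytes. Control microglia have the lowest points of both panels, and day 3 cells of the joint class the highest, up to 1.111%.

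Library totals ran from 371329 to 3325825 transcripts. The markers of the labelled classes were checked first. The summed level of 10 microglia markers was 24800 and 28274 CPM (transcripts per 1000000 of a sum) in control microglia, 14164 and 16316 CPM at day 3, and 17762 and 17599 CPM at day 7, and at most 2083 CPM in the other retinal classes after the lesion. These identity markers were thus lower in every lesion sum than in the control sums, with none of the 10 at 0. A list of 11 dendritic cell markers reached 51810 to 65281 CPM in dendritic cells, but also 39149 to 60459 in the macrophages of the cornea and the ciliary body. The summed level of 9 macrophage markers was lower in those macrophages (2710 to 3824 CPM) than in microglia of the same table (7953 to 8480 CPM). However, 6 and 5 of the 9 were at 0 in the microglia sums P1 and P2. In macrophages 2 and 1 were at 0 in the cornea sums P2 and P5, and 0 and 1 in the ciliary body sums P3 and P4. The higher microglia sum thus rested on fewer of the markers. The joint class mixed monocyte markers (2617 to 4895 CPM in the retina), T cell markers (47 to 2229) and neutrophil markers (57 to 2218), so its levels are averages over unlike cells. Rod and cone transcripts made up a median of 0.347% and 0.711% per control microglia well, 0.082% and 0.187% at day 3, and 0.471% and 0.893% at day 7. They thus moved with the day. The median mitochondrial share per microglia well was 6.91% and 9.56% in control sums, 13.3% and 12.7% in day 3 sums, and 10.4% and 10.5% in day 7 sums, higher in every lesion sum. A list of 5 Mueller glia markers, which holds Apoe, summed to 1700 and 2447 CPM in control microglia, 1169 and 4535 CPM at day 3, and 10729 and 12104 CPM at day 7. All 5 markers were present at day 7, and 1 was at 0 in the P1 sums of control and of day 3. The part of these lists and of the mitochondrial share in the results was not tested.

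In microglia at day 3, 8 of the 22 interferon response genes that had enough transcripts to test were higher than in control and none was lower. Of all 3408 genes tested, 11.9% were called higher (edgeR quasi-likelihood test on the sums, Benjamini-Hochberg adjusted p under 0.05 over all genes). The other 23 members had too few transcripts for the filter on low counts, and a gene can pass it through the group where it is high. With no filter, 12 of the 45 genes were called higher, where 2.46% of all genes were. The genes called were the modifier Isg15, the sensor Eif2ak2, the chemokine Cxcl10, the effectors Ifitm3 and Oasl2, and Ifi27l2a, Ifi204 and Rtp4 among the others. None of the 3 transcription regulators, the 1 GTPase and the 2 Parp genes tested was called. Levels below are CPM of a sum, which in this protocol count each molecule once whatever its length.

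Isg15, a ubiquitin-like protein that is attached to other proteins, stood at 15.3 and 13.6 CPM in control microglia, 118.7 and 165 CPM at day 3, and 84.6 and 79.6 CPM at day 7. Both lesion groups lay far above control, and day 3 above day 7. Its log2 fold change was 3.32 ± 0.65 (SE) for day 3 over control (edgeR adjusted p = 0.000767) and 2.50 for day 7 over control (edgeR adjusted p = 0.0683). The control sums held 3 Isg15 transcripts in all, against 49 at day 3, a ratio of 10.6 per transcript sequenced with a 95% counting interval of 3.42 to 53.1.

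Ifi27l2a, a small interferon-induced protein, stood at 123 and 20.4 CPM in control microglia, 310.5 and 348 CPM at day 3, and 215 and 292 CPM at day 7. The control sums differed widely from each other, but both lay below every lesion sum. The log2 fold change was 2.61 ± 0.48 for day 3 (edgeR adjusted p = 0.000729) and 2.21 ± 0.51 for day 7 (edgeR adjusted p = 0.0235). Without the control sum P2 the day 7 value fell to 1.12 (edgeR adjusted p = 0.367).

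Eif2ak2 encodes PKR, the kinase that senses double-stranded RNA and halts translation. It stood at 15.3 and 34 CPM in control microglia, 146 and 142 CPM at day 3, and 71.6 and 61.9 CPM at day 7. The 3 groups did not overlap, with day 3 highest. The log2 fold change was 2.35 ± 0.56 for day 3 over control (edgeR adjusted p = 0.00356), and the change of −1.08 ± 0.44 between day 7 and day 3 was not called (edgeR adjusted p = 0.114).

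Cxcl10, a chemokine that draws T cells and NK cells, was counted at 0 and 20.4 CPM in control microglia, 100.5 and 147 CPM at day 3, and 84.6 and 274 CPM at day 7. In the control sum with none, 3 transcripts would have made 46.0 CPM, and every lesion sum lay above that. The log2 fold change was 3.15 ± 0.84 for day 3 (edgeR adjusted p = 0.0102) and 3.57 ± 0.82 for day 7 (edgeR adjusted p = 0.0259). As counted transcripts, 43 at day 3 and 44 at day 7 stood against 3 in control, ratios of 9.29 (95% counting interval 2.97 to 46.8) and 11.7 (3.74 to 58.8). On each day a single well held most of these transcripts, as given further below. The intervals treat every transcript as independent and so do not cover that unevenness between wells. Without the well of highest interferon gene share in each sum the log2 fold changes were 2.92 and 3.28, no longer called (edgeR adjusted p of 0.304 and 0.513). The wells that held most of the Cxcl10 transcripts were not the wells removed there, so that fit does not show the change without them. Without the sum P2 of the day itself they were 2.83 and 2.58 (edgeR adjusted p of 0.0578 and 0.134).

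Ifitm3, which blocks entry of viruses at endosomal membranes, stood at 123 and 74.8 CPM in control microglia, 228 and 289 CPM at day 3, and 403 and 159 CPM at day 7. Both lesion groups lay above control. Its log2 fold change was 1.55 ± 0.44 at day 3 (edgeR adjusted p = 0.0157), and at day 7 it missed the threshold (edgeR adjusted p = 0.0518). The day 3 call was lost without the day 3 sum P2 or the control sum P2 (edgeR adjusted p of 0.0793 and 0.140).

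Oasl2, a relative of the RNA-sensing oligoadenylate synthetases, stood at 30.6 and 27.2 CPM in control microglia, 73.1 and 132.8 CPM at day 3, and 91.1 and 88.5 CPM at day 7. Ifi204, a DNA-binding member of a family of near-identical neighbours, stood at 30.6 and 74.8 CPM, 155 and 188 CPM, and 195 and 176.97 CPM in the same order. Rtp4, a receptor transport protein, stood at 61.3 and 40.8 CPM, 100.5 and 142 CPM, and 111 and 132.7 CPM. For all 3 genes every lesion sum exceeded both control sums. At day 3 their log2 fold changes were 1.94 ± 0.60, 1.56 ± 0.45 and 1.41 ± 0.51, with edgeR adjusted p of 0.0202, 0.0141 and 0.0484. The Rtp4 call was lost in 8 of 13 alternatives, among them the prefix as a block (edgeR adjusted p = 0.0521) and leaving out the control sum P2 (0.345) or the day 3 sum P2 (0.291). Ifi204 lost its call in 4 of 15, without the day 3 sum P2 or the control sum P1 among them (edgeR adjusted p of 0.0983 and 0.0590). Oasl2 lost it in 2 of 11, without the day 3 or the control sum P2 (edgeR adjusted p of 0.321 and 0.167).

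Trim30a and Bst2 had the highest mean levels among the members in microglia and were not called. Trim30a stood at 153 and 169.9 CPM in control microglia, 228 and 298 CPM at day 3, and 306 and 301 CPM at day 7, a log2 difference of 0.74 at day 3 (edgeR adjusted p = 0.103). Bst2, which tethers budding virus to the cell, stood at 107 and 197 CPM, 137 and 417 CPM, and 358 and 239 CPM, a log2 difference of 0.88 at day 3 (edgeR adjusted p = 0.196). Trim30a did not overlap between control and lesion sums, whereas Bst2 at day 3 did. Samhd1, which degrades deoxynucleotides, was the 1 tested member with a negative day 3 difference, −0.36 (edgeR adjusted p = 0.506).

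The median log2 difference of the 22 tested genes was 0.97 at day 3 and 1.04 at day 7, against 0.03 and 0.01 over all genes tested. At day 3, 14 of the 22 had both sums above both control sums, as did 31.5% of all genes, and at day 7 this held for 15 of the 22 and for 21.8% of all genes. At day 7, 2 of the 22 were called higher, Ifi27l2a and Cxcl10, where 1.38% of all genes were. Between day 7 and day 3 the same test called 0 of the 22, where 9.45% of all genes were called in either direction. In that contrast 1 of the 22 had an unadjusted p under 0.05, and DESeq2 called 0. Both lesion contrasts share the control sums.

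**Figure D2:**
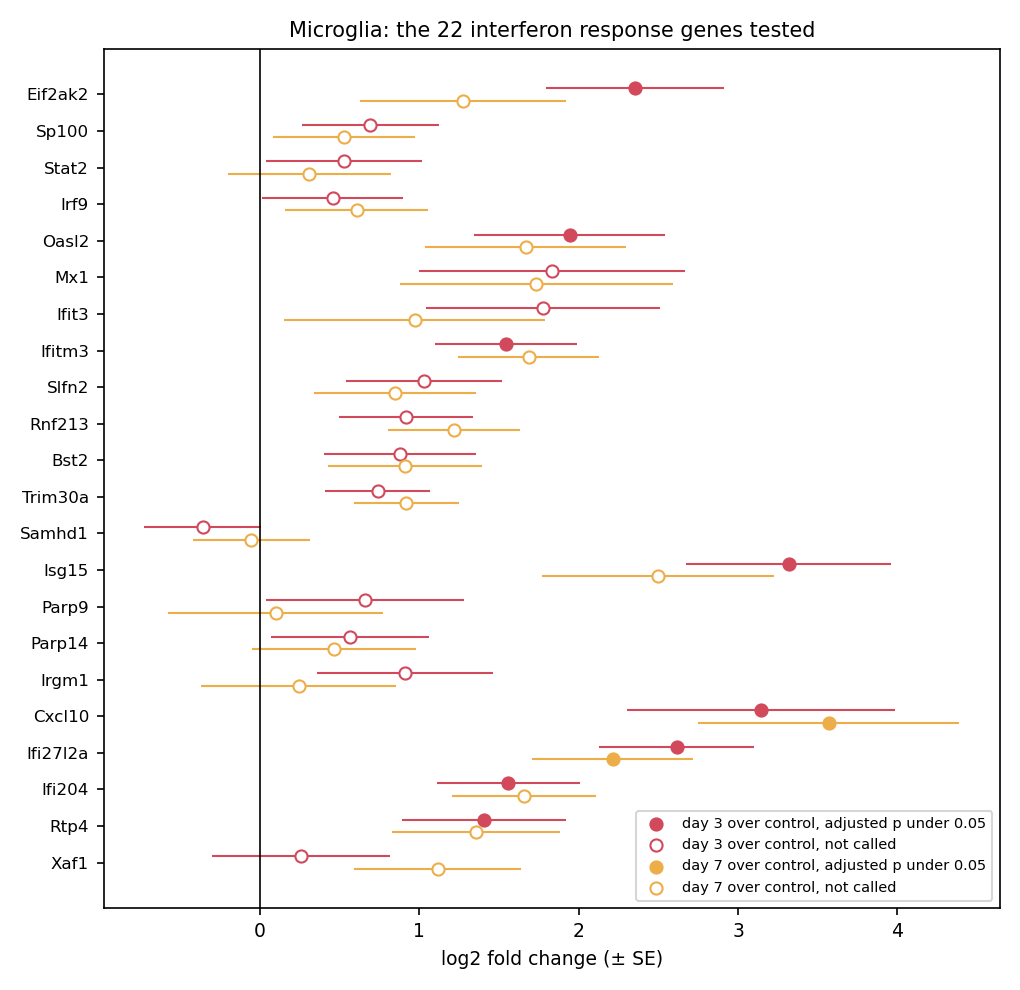
Log2 fold change (x axis, ± SE) of the 22 interferon response genes tested in microglia (y axis, ordered by role), day 3 over control in red and day 7 over control in yellow. Filled points passed an adjusted p of 0.05. At day 3, 21 of the 22 points lie right of 0, and Isg15 lies farthest right at 3.32.

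The day 3 result depended on which sum was in the fit, and so did the number of genes tested. The median log2 difference of the members was 0.99 without the day 3 sum P2 (24 tested) and 1.67 without the day 3 sum P1 (35 tested). Leaving out the control sums P1 and P2 gave 1.45 (36 tested) and 1.52 (29 tested). Over all genes these medians lay between −0.07 and 0.09. Without the well of highest interferon gene share in each sum 7 of 18 members were called, where 12.3% of all genes were called higher. Removing wells rich in photoreceptor transcripts gave 5 of 20, where 337 of all 2699 genes were called higher. Ifi27l2a kept its day 3 call under all 15 alternatives. Isg15 and Eif2ak2 kept theirs under the 13 that gave them an adjusted p, and the remaining alternatives gave them none.

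To ask whether few or many microglia carry the response, each well was thinned at random to 1000 transcripts, so that wells of unequal depth could be set side by side. A well then held a mean of 2.42 interferon gene transcripts in control microglia, 4.56 at day 3 and 4.22 at day 7, with medians of 2, 3 and 3. Wells with at least 3 such transcripts made up 36.7% of control microglia (44 of 120, exact 95% interval 28.1 to 45.9%), 60.5% at day 3 (49 of 81, 49 to 71.2%) and 56.6% at day 7 (64 of the 63 and 50 wells, 47 to 65.9%). The shift was thus seen in the middle of the distribution and not only in its tail. Per prefix these shares were 25% and 40.9% in control sums, 60.0% and 60.8% in day 3 sums, and 55.6% and 58.0% in day 7 sums, with no overlap between control and lesion. Without thinning the shares of wells with at least 3 were 60.0%, 91.4% and 82.3% in the same order. The wells were deepest at day 3, with a median of 1418 to 2036 transcripts per well in the control libraries, 2575 to 2803 at day 3 and 2037 to 2334 at day 7. The intervals cover counting error among wells only.

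Wells with at least 3 different interferon genes made up 31.7% of control microglia, 58.0% at day 3 and 54.0% at day 7. At least 10 transcripts were found in 2 control wells, 10 day 3 wells and 10 day 7 wells. Most wells had at least 1 such transcript, 85.0% in control, 91.4% at day 3 and 88.5% at day 7. The 10% of wells richest in interferon transcripts held 35.4% of the control total, 37.1% of the day 3 total and 36.5% of the day 7 total. The variance over the mean was 3.94, 4.87 and 5.41 in that order, above the 1 that equal wells would give by counting alone. Without thinning, when deeper wells weigh more, the top 10% held 32.9%, 50.1% and 41.8%.

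**Figure D3:**
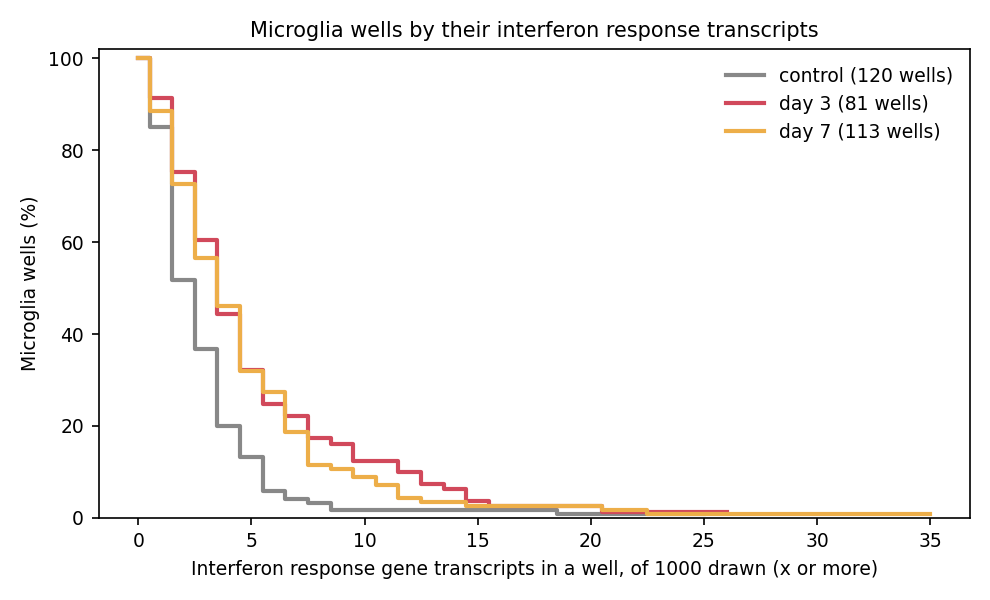
Percentage of microglia wells (y axis) that held at least the number of interferon response transcripts on the x axis, after each well was thinned to 1000 transcripts. The day 3 and day 7 curves run above the control curve from 1 transcript up to about 15, with 60.5% and 56.6% of wells at 3 or more against 36.7% in control.

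Single wells with a very strong response were found in every group, control included. The highest day 3 well held 244 interferon gene transcripts of 8711 (2.81%) from 37 of the 45 genes, with 34 of Ifit3, 28 of Ifit2, 18 of Ifit1, 12 of Usp18, 12 of Mx1 and 11 of Irf7. The highest day 7 well held 42 of 1177 (3.57%) from 22 genes. The highest control wells held 28 of 1197 (2.34%, 17 genes) and 27 of 1258 (2.15%, 18 genes). All 4 of these wells carry the microglia label in the authors' second annotation by signature as well. Over all wells on which both annotations say microglia, the share was 0.227% in control (118 wells), 0.471% at day 3 (60 wells) and 0.393% at day 7 (99 wells). Without the highest well of each sum the shares were 0.176% and 0.217% in control sums, 0.347% and 0.449% in day 3 sums, and 0.426% and 0.367% in day 7 sums, and the lesion sums still lay above control.

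The genes differed in how widely they were spread over microglia. Ifi27l2a had a transcript in 6 of 120 control wells, 43 of 81 day 3 wells and 33 day 7 wells (29.2%), Ifitm3 in 15, 38 and 40, and Eif2ak2 in 6, 29 and 15. Isg15 was found in 3, 21 and 11 wells, and Ifi204 in 10, 24 and 36. These genes were spread widely at day 3, and no single well held most of their transcripts. Cxcl10 and the Ifit genes were concentrated. Cxcl10 was found in 3, 5 and 10 wells, and 1 well held 30 of its 43 transcripts at day 3 and 1 well 26 of its 44 at day 7. At day 3 the well named above held 28 of the 42 Ifit2 transcripts, 18 of the 31 of Ifit1 and 34 of the 65 of Ifit3, the RNA-binding effectors that block viral translation.

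**Figure D4:**
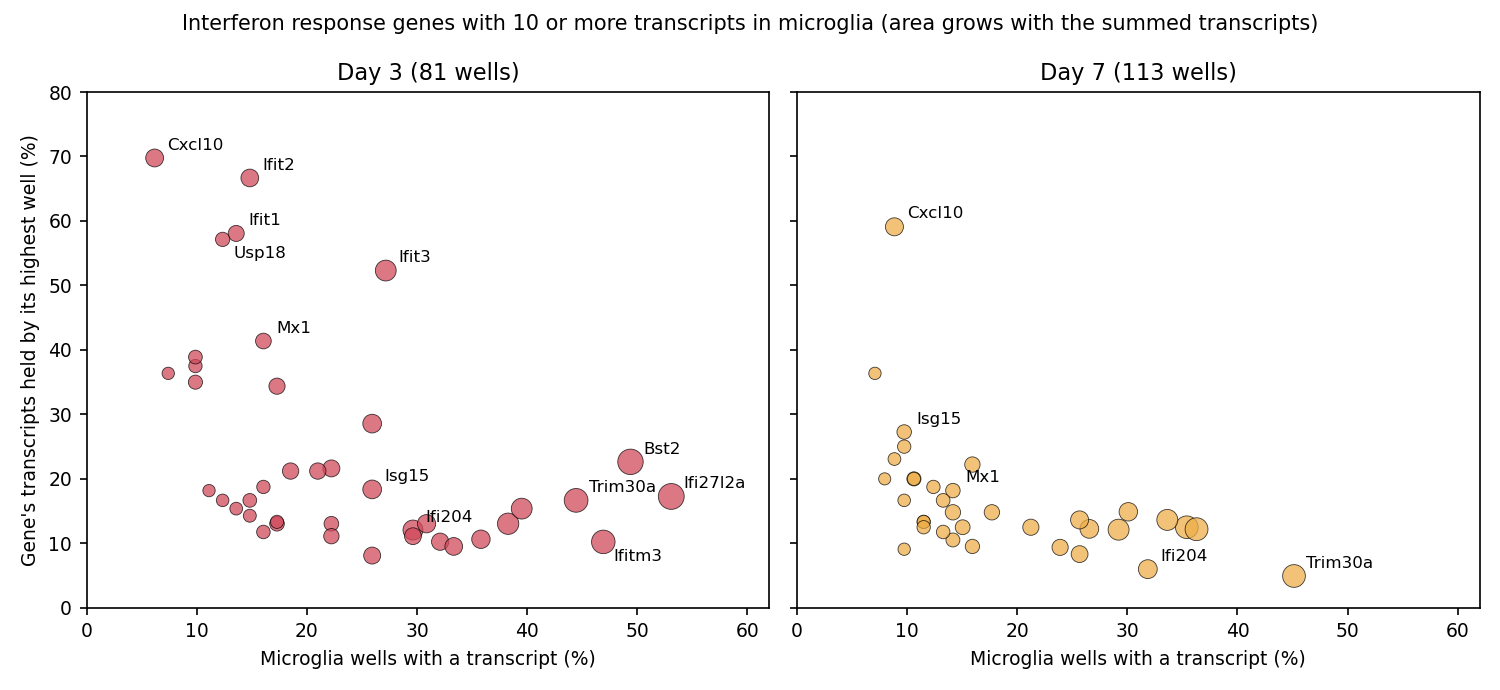
For each interferon response gene with at least 10 transcripts in microglia, the percentage of wells with a transcript (x axis) and the percentage of the gene's transcripts held by its highest well (y axis), at day 3 (left) and day 7 (right). Point area grows with the summed transcripts. Ifi27l2a, Ifitm3, Trim30a and Bst2 lie low and to the right at day 3, and Cxcl10 lies at the upper left on both days.

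After the lesion, some of these genes were higher and some lower in dendritic cells than in microglia of the same libraries. The main fit did not pair classes that share libraries. A fit with prefix and day as a block called 7 of 38 genes higher and 3 lower, where 1199 of all 3860 genes were called. Averaged over both days, 7 of the 38 genes tested were higher in dendritic cells (15.6% of all 3860 genes tested were) and 3 were lower (14.3% of all genes), with a median log2 difference of 0.19 against −0.06 over all genes. The higher ones were Ifitm3, Slfn2, Slfn5, Irf7, Isg15, Irf1 and Samhd1, and the lower ones Ifi27l2a, Ifi204 and Cxcl10. Ifitm3 stood at 1183 and 1655 CPM at day 3 and 902 and 1121 CPM at day 7 in dendritic cells, against 228, 289, 403 and 159 CPM in microglia. Every dendritic cell sum was above every microglia sum, and the log2 fold change was 2.24 ± 0.25 (edgeR adjusted p = 1.64e-07). Ifi27l2a stood at 102, 101, 154 and 176 CPM in dendritic cells in the same order, against 310.5, 348, 215 and 292 CPM in microglia, with no overlap. Its log2 fold change was −1.04 ± 0.29 (edgeR adjusted p = 0.00653). Ifi204 and Cxcl10 were lower, with log2 fold changes of −1.41 ± 0.40 and −2.07 ± 0.68 (edgeR adjusted p of 0.00792 and 0.0285). On each day a single well held most of the Cxcl10 transcripts of microglia, as given above. Those wells were not among the highest wells left out in the next fit. Without the highest well of each sum 6 of 33 genes tested were called, where 1121 of all 3756 genes were. Isg15, Samhd1 and Cxcl10 were among those no longer called, with log2 fold changes of 1.15, 0.74 and −1.97 (edgeR adjusted p of 0.0724, 0.0530 and 0.0710), against 1.05, 0.76 and −2.07 with all wells. Without the day 7 dendritic cell sum P1 the Slfn5 difference was 0.03. Of 8 fits that each left out 1 sum, Cxcl10 lost its call in 5 and Irf1 in 4, whereas Ifitm3 and Slfn2 kept theirs in all 8.

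The joint class of monocytes, lymphocytes and granulocytes was higher than microglia in 17 of the 38 genes tested and lower in none, where 13.4% of all genes were called higher. The median log2 difference was 0.78, against 0.01 over all genes. With prefix and day as a block 18 of 38 were higher, where 529 of all 3860 genes were. By role, 4 of the 5 GTPases tested were higher, 7 of the 15 effectors, 3 of the 5 transcription regulators and 2 of the 4 sensors. Ifi47, a GTPase of a family that attacks vacuoles holding pathogens, stood at 117 and 224 CPM at day 3 and 396 and 400.1 CPM at day 7 in the joint class, against 9.13, 68.7, 39 and 35.4 CPM in microglia. Every sum of the joint class lay above every microglia sum, and the log2 fold change was 2.54 ± 0.40 (edgeR adjusted p = 1.14e-05). Irf1, a transcription factor of the type II interferon response, stood at 211, 369.7, 189 and 171.5 CPM in the joint class, against 27.4, 50.4, 71.6 and 35.4 CPM in microglia. These did not overlap either, and the log2 fold change was 2.15 ± 0.35.

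The GTPases Gbp7 and Igtp were higher by 2.09 ± 0.39 and 1.73 ± 0.38 on the log2 scale, and Gbp2 by 1.97 ± 0.56. Isg15 was higher by 1.43 ± 0.30 and Irf7, the factor that amplifies type I interferon production, by 1.63 ± 0.39. The edgeR adjusted p of these 5 genes ran up to 0.00701. The 4 genes Ifi27l2a, Eif2ak2, Ifi204 and Cxcl10, which were among the 8 higher in day 3 microglia, were not called between these classes, with log2 differences of 0.03, −0.11, −0.21 and −0.23 in that order. Within the joint class the share was uneven. At day 3, 11 wells that the signature annotation names monocytes had 1.48% of their transcripts on the 45 genes, 15 wells named lymphocytes 1.16%, 11 unassigned wells 0.538% and 5 wells named dendritic cells 0.478%. The highest single well held 111 of 1489 transcripts (7.46%), with Cxcl10, Ifitm3, Rsad2 and Gbp7 leading.

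**Figure D5:**
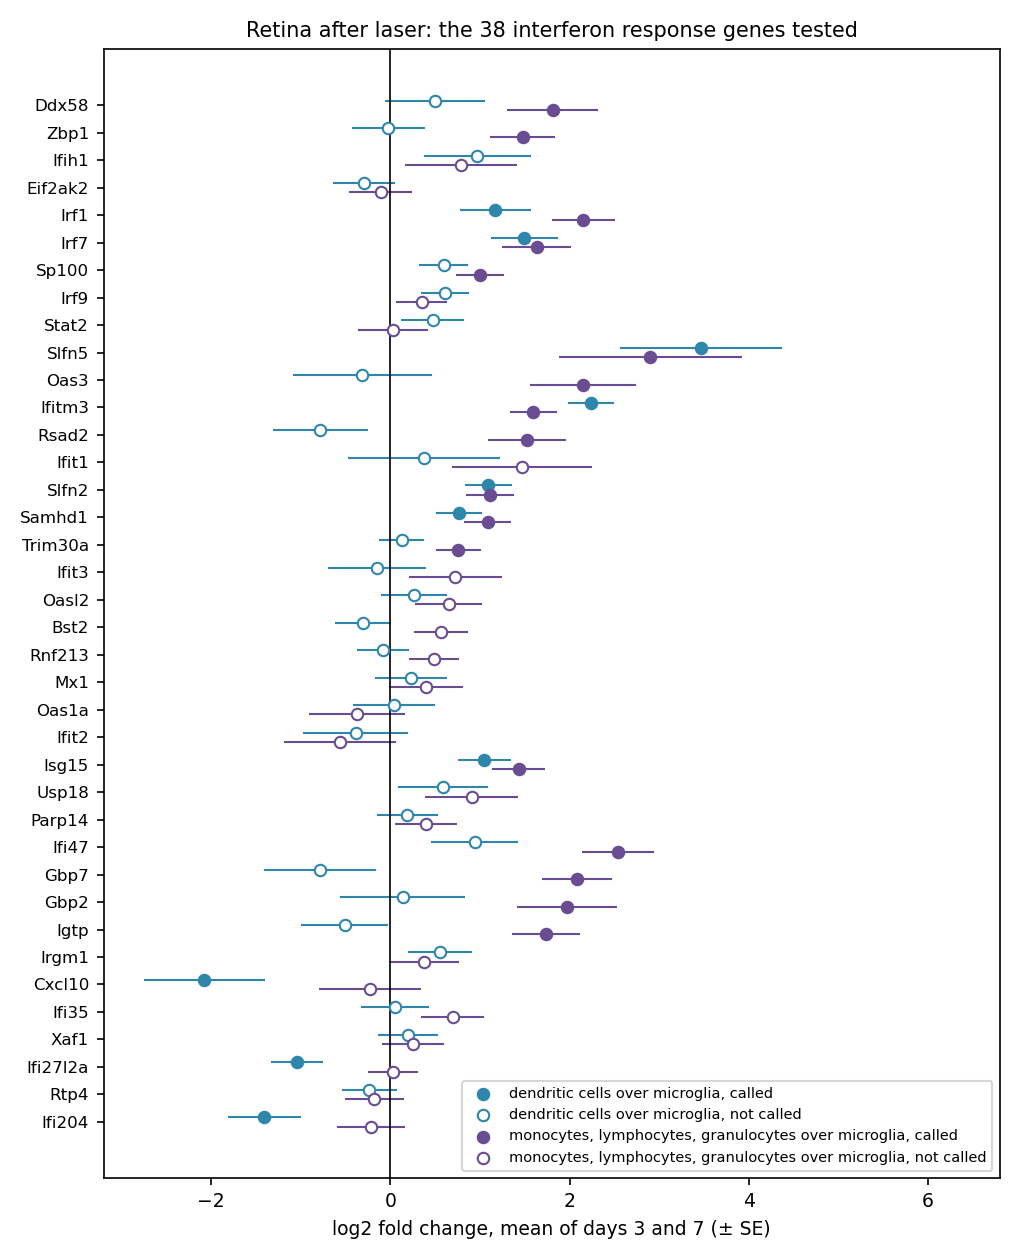
Log2 fold change over microglia after the lesion (x axis, mean of days 3 and 7, ± SE) for the 38 interferon response genes tested (y axis, ordered by role), in dendritic cells (blue) and in the joint class of monocytes, lymphocytes and granulocytes (purple). Filled points passed an adjusted p of 0.05. The GTPases Ifi47, Gbp7, Gbp2 and Igtp are filled for the joint class only, and Cxcl10, Ifi27l2a and Ifi204 lie left of 0 and are filled for dendritic cells.

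Between day 7 and day 3, 2 of the 38 genes tested were called in dendritic cells and 1 in the joint class. The median log2 difference of the 38 was 0.75 in dendritic cells, with 32 positive, against −0.08 over all genes. In the joint class it was −0.12, with 15 positive, against −0.05 over all genes. In dendritic cells Isg15 rose to 363 and 615 CPM at day 7, against 63.9 and 109.9 CPM at day 3, and Irf7 to 242 and 396 CPM at day 7, against 38.4 and 88.3 CPM at day 3. For both genes the days did not overlap. The log2 fold changes were 2.36 ± 0.39 and 2.13 ± 0.46 (edgeR adjusted p of 0.00237 and 0.0384), 2 of 38 genes where 0.104% of all genes were called higher. The day 7 sums held 16 and 10 wells, and 1 well held 24 of the 61 Isg15 transcripts. Both calls ended without the highest well of each sum, where the log2 fold changes were 1.78 and 2.03 (edgeR adjusted p of 0.437 and 0.165), and the count was 0 also without the day 3 sum P1 or the day 7 sum P2. The change in dendritic cells exceeded that in microglia by 3.15 ± 0.59 for Isg15 and by 3.57 ± 0.75 for Irf7 (interaction in the same edgeR fit, adjusted p of 0.0110 and 0.0293, where 0.207% of all genes were called).

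In the joint class Ifitm3 fell to 585 and 286 CPM at day 7, against 1913 and 1434 CPM at day 3, without overlap. Its log2 fold change was −1.90 ± 0.36 (edgeR adjusted p = 0.00478), the 1 call among 38 genes where 1.22% of all genes were called lower. The change differed from that in microglia by −2.06 ± 0.52 (interaction, edgeR adjusted p = 0.0423, where 1.58% of all genes were called). Without the day 7 sum P2 the Ifitm3 value was −1.53 (edgeR adjusted p = 0.058) and no gene was called, and without the day 3 sum P1 3 genes were. The makeup of the class moved with the day too. By signature, 11 wells were named monocytes and 15 lymphocytes at day 3, against 2 and 32 at day 7. The part of this makeup in the Ifitm3 change was not tested.

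In eyes without a lesion, macrophages of the cornea and of the ciliary body exceeded retinal microglia in several of these genes, Ifitm3, Irf1 and Cxcl10 among them. In cornea macrophages 8 of the 30 genes tested were higher (16.4% of all 4832 genes tested were) and 1, the GTPase Igtp, was lower (13.5% of all genes). In ciliary body macrophages 10 of the 30 were higher, where 15.4% of all genes were, and none was lower. The medians were 0.91 and 1.01 on the log2 scale, against 0.05 and −0.04 over all genes. Both contrasts share the microglia sums. Microglia came from prefixes P1 and P2, cornea from P2 and P5 and ciliary body from P3 and P4, so tissue and prefix cannot be told apart for the ciliary body. For the cornea P2 holds both. Within it cornea macrophages and microglia stood at 308 and 68.7 CPM for Irf1, 323 and 61.8 CPM for Ifitm3, and 194 and 13.7 CPM for Cxcl10. The summed levels of marker lists for other cells moved with the tissue. The 4 corneal epithelium markers summed to 18061 and 24796 CPM in cornea macrophages and 0 and 1795 CPM in ciliary body macrophages, against 0 and 1600 CPM in microglia. The Mueller glia list, which holds Apoe, summed to 10512 and 8209 CPM in cornea macrophages and 19191 and 13294 CPM in ciliary body macrophages. In microglia it summed to 1770 and 2294 CPM. Of its 5 markers, 2 were at 0 in the ciliary body sum of 19191 CPM. How much of these sums was Apoe was not tested. The part of these lists in the differences was not tested.

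Irf1 stood at 308 and 330.3 CPM in cornea macrophages and 373 and 451 CPM in ciliary body macrophages, against 77.0 and 68.7 CPM in microglia. The 3 groups did not overlap. The log2 fold changes over microglia were 2.37 ± 0.40 and 2.77 ± 0.39 (edgeR adjusted p of 0.000271 and 4.81e-05). Ifitm3 stood at 323 and 423 CPM in cornea macrophages and at 400.1 and 492 CPM in ciliary body macrophages, against 92.3 and 61.8 CPM in microglia. Both macrophage groups lay above microglia and overlapped each other, with log2 fold changes of 2.57 ± 0.38 and 2.86 ± 0.37.

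Cxcl10 stood at 194 and 117 CPM in cornea macrophages and 204 and 231 CPM in ciliary body macrophages, against 0 and 13.7 CPM in microglia. Microglia had the lowest sums by far, and the macrophage groups did not overlap, with the ciliary body highest. As counted transcripts, 63 in the cornea and 142 in the ciliary body stood against 2 in microglia, ratios of 16.3 (95% counting interval 4.32 to 137) and 23.1 (6.29 to 193). The log2 fold changes were 4.17 ± 0.74 and 4.69 ± 0.70 (edgeR adjusted p of 0.000346 and 6.46e-05). Igtp stood at 9.93 and 14.6 CPM in cornea macrophages, against 92.3 and 68.7 CPM in microglia, a log2 fold change of −2.38 ± 0.79 (edgeR adjusted p = 0.0261). The Igtp call was lost in 6 of 11 alternatives, with each of the 4 sums left out, with DESeq2 and with no filter, where the log2 values ran from −2.61 to −2.09.

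Slfn2, a growth regulator of leukocytes, was higher by 2.56 ± 0.47 in cornea macrophages and by 2.10 ± 0.47 in ciliary body macrophages on the log2 scale. Isg15 and Eif2ak2 were called in both tissues too, and Ifih1, which senses long double-stranded RNA, as well. Ifih1 had 1 transcript in the microglia sums, against 26 in the cornea (ratio 13.4, 95% counting interval 2.21 to 551) and 28 in the ciliary body (ratio 9.13, 1.51 to 373). Isg15 had 3 transcripts in microglia, against 28 (4.82, 1.49 to 24.8) and 38 (4.13, 1.31 to 20.9). Ifi47 was called in the cornea, with 26 transcripts against 2 in microglia (6.72, 1.68 to 58.4), and Rnf213, Irf7 and Trim30a in the ciliary body. Leaving out 1 sum at a time gave median log2 differences of 0.78 to 1.80 in the cornea and 1.04 to 1.74 in the ciliary body. Ifitm3, Irf1 and Cxcl10 kept their calls in both tissues in each of these 4 fits and with DESeq2. In the cornea Isg15 and Eif2ak2 lost theirs in all 4 fits, with edgeR adjusted p of up to 0.176 and 0.212, and Ifih1 and Ifi47 in 2 of the 4. In the ciliary body Isg15, Eif2ak2, Irf7 and Ifih1 lost their calls in 3 of the 4 and Rnf213 and Trim30a in all 4.

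Between cornea macrophages and ciliary body macrophages the edgeR test called none of the 30 genes, where 2.65% of all genes were called. A gene that is not called is not shown to be alike in both. Of the 30, 1 had an unadjusted p under 0.05, and DESeq2 called 0. Within the ciliary body, the joint class differed from macrophages in 2 genes, in a fit that did not pair them by library. With the prefix as a block, 3 of 30 genes were called, where 360 of all 4832 genes were. Ifitm3 stood at 995 and 1209 CPM in the joint class, against 400.1 and 492 CPM in macrophages, a log2 fold change of 1.12 ± 0.28 (edgeR adjusted p = 0.0281, where 1.92% of all genes were called higher). Cxcl10 stood at 46.8 and 106 CPM in the joint class, against 204 and 231 CPM in macrophages, a log2 fold change of −1.68 ± 0.43 (edgeR adjusted p = 0.0313, where 2.26% of all genes were called lower). Neither gene overlapped between the classes. Leaving out the macrophage sum P3 or P4 ended both calls, with edgeR adjusted p of 0.249 and 0.135 for Ifitm3 and 0.107 and 0.139 for Cxcl10. Leaving out the sum of the joint class ended 1 call each, that of Cxcl10 without P3 (edgeR adjusted p = 0.182) and that of Ifitm3 without P4 (edgeR adjusted p = 0.130).

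Ifitm3 had the highest mean level over all sums, 760 CPM.

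Of a list of 32 interferon ligands, receptors and signalling genes, 28 were matched to a row. In microglia at day 3, 14 of them were tested. Of these 1 was higher, where 11.9% of all genes were, and 2 were lower, where 10.5% of all genes were. Ifngr1, the ligand-binding chain of the type II interferon receptor, stood at 322 and 625 CPM in control microglia, 146 and 137 CPM at day 3, and 481 and 389 CPM at day 7. Day 3 lay below both other groups, and the log2 fold change was −1.78 ± 0.33 for day 3 over control (edgeR adjusted p = 0.000557) and 1.63 ± 0.32 for day 7 over day 3 (edgeR adjusted p = 0.00269). Stat3, which carries signals of several cytokines, stood at 107 and 116 CPM in control microglia, 247 and 229 CPM at day 3, and 97.6 and 115.03 CPM at day 7. It was high at day 3 alone, with log2 fold changes of 1.09 ± 0.36 for day 3 over control and −1.16 ± 0.35 for day 7 over day 3 (edgeR adjusted p of 0.0318 and 0.0368). Tmem173, which encodes the DNA sensing adaptor STING, was lower at day 3, with a log2 fold change of −0.94 ± 0.32 (edgeR adjusted p = 0.0348). At day 7 none of the 14 was called against control, where 1.82% of all genes were. Ifng, the type II ligand, had at most 2 transcripts in any sum of the retina table and was not tested.

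In dendritic cells against microglia after the lesion, 5 of the 18 pathway genes tested were higher and 4 lower, where 15.6% and 14.3% of all genes were. In the joint class 6 were higher and 3 lower, where 13.4% and 13.9% of all genes were. Jak2, the kinase of the type II receptor, was among the higher ones in both, by 3.32 and 2.28 on the log2 scale. In unlesioned eyes, 2 of 20 pathway genes were higher and 4 lower in cornea macrophages than in microglia, where 16.4% and 13.5% of all genes were. In ciliary body macrophages 4 were higher and 2 lower, where 15.4% and 10.9% of all genes were. Socs3, an inhibitor of cytokine signalling, and Stat3 were higher in both tissues.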

How the data were processed

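Annotated wells were taken from the deposited library tables and the authors' unnormalized tables, which hold estimated counts: for each gene and well, the number of transcripts that the authors derived from molecular identifiers, not normalized. Reads were aligned with BWA 0.6.2-r126, per the submitters' processing notes. Not given in the sources used here are the genome build, the annotation and the treatment of reads shared by near-identical genes. Members of the Ifi204, Ifit, Oas, Slfn, Gbp and Trim30 families are uncertain for that reason. Rows of the authors' tables carry no gene name, and they were matched to genes by exact equality of values with the library tables (19989 of 19989 rows in the retina table and 19705 of 19705 in the eye table). The authors' tables leave out 37.2% and 38.9% of the transcripts, mitochondrial genes and Gm10800 among them. All annotated wells were used, of which 65 had under 1000 transcripts or over 25% mitochondrial transcripts. No doublet caller was run, since each well received 1 sorted cell by design. No label gives separate mice, so p-values measure the spread between these sums, which may be technical.

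Counts were summed per class, group and name prefix, rounded, filtered (filterByExpr), scaled by TMM and tested with edgeR 4.0.16 in R 4.3.3 (robust quasi-likelihood fit, Benjamini-Hochberg over all genes tested, threshold 0.05), a procedure tested on simulated data. With 2 sums a group many changes go uncalled, so a gene that is not called is not shown to be unchanged. The 3 microglia groups formed one fit, the retinal classes after the lesion and control microglia another, and the eye table the last. Fold changes are those edgeR reports with its default prior count. DESeq2 1.42.0, other scaling and filters, other sets of wells and genes, the name prefix as a block and each sum left out were alternatives. Named in full were members called in a microglia comparison, then the members of highest level in the class described, up to 10 per comparison. The members, gene lists and tests were chosen with earlier results of these data known. Promoters are from RefSeq, GRCm38.p6, and motifs were counted once per position.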

Additional observations from a re-analysis of the deposited data

Results flagged for a closer look

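The day 7 minus day 3 change differed between dendritic cells and microglia for 2 of the 38 genes tested, by 3.57 on the log2 scale for Irf7 and by 3.15 for Isg15 (interaction, edgeR adjusted p of 0.0293 and 0.0110), where 8 of all 3860 genes tested (0.207%) were called. Without the highest well of each sum the change between days in dendritic cells was no longer called for either gene. The same difference between the joint class of monocytes, lymphocytes and granulocytes and microglia was −2.06 for Ifitm3 (edgeR adjusted p = 0.0423), where 61 of all 3860 genes (1.58%) were called.

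Wells that pass the filter on depth and mitochondrial share but carry no annotation also had a higher share of interferon gene transcripts after the lesion. Their share per library ran from 0.209% to 0.408% at day 3 (107 wells in all) and from 0.169% to 0.325% at day 7 (152 wells), so that the lowest values, 0.209% and 0.169%, lay above the control libraries at 0.0352% to 0.156% (76 wells). Photoreceptor transcripts made up 1.84% to 4.72% of these wells at day 3, 3.43% to 8.52% at day 7 and 4.15% to 10.5% in control, and their part in the difference was not tested. None of 11 groups of libraries held a library far from the others by Dixon's test.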

How the results depend on the processing

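For the 61 calls on single genes, 831 alternatives gave a value: 668 kept the call and its direction, the others kept the direction without the call, and none turned the direction round. The counts of genes called changed more. The number of members tested changed too, and values in brackets are calls over all genes. With DESeq2, 2 of 13 members were called at day 3 in microglia (237 of 1930 genes) and 0 of 5 at day 7 (35 of 892 genes). Against microglia it called 4 of 45 for dendritic cells (774 of 8748 genes) and 9 of 45 for the joint class (624 of 7973 genes). For dendritic cells between days it called 0 of 45 (1 of 19984 genes). Cornea and ciliary body macrophages had 4 of 39 (616 of 6330 genes) and 4 of 30 (612 of 5185 genes). Within the ciliary body it called 0 of 29 (63 of 4803 genes). Leaving out 1 sum at a time gave 3 to 17 in day 3 microglia, 2 to 3 at day 7, 0 to 2 between these days, 6 to 12 for dendritic cells and 14 to 20 for the joint class against microglia, 0 to 2 and 0 to 3 between days in these classes, 5 to 8 and 4 to 7 for cornea and ciliary body macrophages, and 0 to 1 within the ciliary body. A sum left alone in its group is assumed to vary like the others. For microglia the day 3 count was also 2 of 7 over single libraries (611 of 1353 genes) and 5 of 20 without wells above 1% photoreceptor transcripts (649 of 2699 genes). It was 5 of 21 for wells on which both annotations say microglia (560 of 3036 genes). The day 7 count was 4 of 45 with no filter (68 of 17840 genes) and 4 of 22 for wells past the depth filter (96 of 3109 genes). It was 1 of 25 with either set of library table genes (37 of 3752 and 37 of 3704 genes). Wells on which both annotations agree gave 1 of 21 (34 of 3036 genes). Without the highest well the count was 6 for dendritic cells against microglia, 0 for dendritic cells between days, where passing wells gave 1, and 1 within the ciliary body, where no filter and either set of library table genes also gave 1. Leaving out the highest well, the library tables with all genes, those without mitochondrial genes for comparisons of classes, the block within the ciliary body and the interactions were chosen after seeing the data.

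With the prefix as a replicate block the microglia counts were 8 of 22 at day 3, 4 of 22 at day 7 and 0 of 22 between them. Of all 3408 genes, 821, 68 and 414 were called in that order. Deviations of same-prefix sums correlated at −0.0005, 0.226 and −0.0652 between the 3 pairs of groups, so the prefix is treated as a shared name only.

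Among mean shares, leaving out Ifitm3 gave 0.407% for day 7 microglia, 0.332% and 0.576% for dendritic cells at days 3 and 7, 0.358% for ciliary body macrophages and 0.455% for the joint class there. Library tables without mitochondrial genes, which keep genes the authors left out, gave 0.117% for control and 0.270% for day 7 microglia, 0.565% for day 7 dendritic cells, 0.694% and 0.590% for the joint class at days 3 and 7, 0.286% for cornea and 0.292% for ciliary body macrophages, 0.362% for the joint class there, and 0.103% for microglia of the eye table. Without the highest well the means were 0.197% for control and 0.396% for day 7 microglia, 0.595% for day 7 dendritic cells and 0.653% for the joint class at day 7. Averaging over wells gave 0.766% for day 7 dendritic cells, 0.865% for the day 7 joint class and 0.445% for ciliary body macrophages, and passing wells gave 0.691% for day 7 dendritic cells. The cause of these shifts was not tested. Depth limits the list most in microglia, where 23 of the 45 genes had too few transcripts to test.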
